A study of Mus musculus with 2 samples.

Results

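The genes described here are 10 of the 27998 genes counted in each library. They are the hedgehog receptor gene Ptch1, the co-receptor genes Gas1 and Boc, the transcription factor genes Gli1, Gli2 and Gli3, the inhibitor gene Hhip, the forkhead genes Foxf1 and Foxf2, and Fendrr, a long non-coding RNA gene next to Foxf1. They were chosen by symbol, and all 10 were present. They were measured in single cells of Swiss Webster mouse embryos at embryonic day 9.5 (E9.5), in 2 droplet libraries. The library labelled Ctrl came from Mesp1Cre;Rosa26-GFPflox/+ embryos and the library labelled cKO from Mesp1Cre;Rosa26-GFPflox/+;Tbx1flox/flox embryos. Both groups thus share the Mesp1Cre driver, which acts in early mesoderm, and the GFP reporter, and the Ctrl embryos carried no floxed Tbx1. Live GFP-positive cells of the pharyngeal apparatus and heart were sorted and counted from the 3′ ends of transcripts. Each group is 1 library made from pooled embryos, 2 per library by the study's account. The study lists a later somite stage for the cKO embryos than for the Ctrl embryos. No difference below has a replicate check, and genotype, embryo stage and library cannot be told apart.

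Hedgehog ligands are made by the endoderm of the pharynx and foregut, the notochord and the floor plate, and act on the mesoderm around them. Without ligand the receptor Ptch1 holds the pathway off. Ligand binding to Ptch1, helped by Gas1, Boc and Cdon, lets the signal reach the Gli proteins. Gli2 is the main activator, Gli3 serves mainly as a repressor, and Gli1 is both an effector and a target. Ptch1, Gli1 and Hhip are the general targets of the pathway, and Ptch1 and Hhip bind the ligand and limit its spread. Foxf1 and Foxf2 are forkhead factors of the splanchnic mesoderm, the layer that surrounds the gut tube and feeds the second heart field, where they are known to answer hedgehog signals. Tbx1, the gene targeted in the cKO embryos, is a T-box factor of the pharyngeal mesoderm and endoderm.

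The genes lie on 5 mouse chromosomes in GRCm38, the assembly known as mm10. Fendrr spans chr8:121054882-121083110 and Foxf1 chr8:121084386-121088154, with 1275 bases between them. Hhip lies on the same chromosome at chr8:79965850-80058060. Ptch1 spans chr13:63508328-63573460, and Gas1 (chr13:60174405-60177535), Gli3 (chr13:15463723-15730026) and Foxf2 (chr13:31625816-31631406) lie on that chromosome as well. Gli1 is at chr10:127329882-127341579, Gli2 at chr1:118834061-119054405 and Boc at chr16:44485045-44558870. Promoter windows of 250 bases before to 50 bases after the start were taken from RefSeq (GRCm38.p6) for the 7 genes that had one, which leaves Gli1, Boc and Foxf1 named only. They were searched on both strands for a Gli site (TGGGTGGTC), a forkhead site (GTAAACA) and a T-box site (TCACACC). Of 32851 promoter windows of this length, 0.253%, 3.65% and 3.98% held these letters. Among the 7 windows, 1 held any of them. The Fendrr window (chr8:121083061-121083360, minus strand) held the forkhead letters from 129 bases before the start, shown in capitals. The upstream 250 bases of Ptch1 (chr13:63565736-63565985, minus strand, before a start inside the annotated span) and Hhip (chr8:80058009-80058258, minus strand), the genes whose levels were most alike across cell populations, are shown beside it and held none of the letters. Guanine and cytosine made up 64.7% of the Fendrr stretch, 78.4% of that of Ptch1 and 76.0% of that of Hhip. A match is a description of letters and shows no binding.
Fendrr: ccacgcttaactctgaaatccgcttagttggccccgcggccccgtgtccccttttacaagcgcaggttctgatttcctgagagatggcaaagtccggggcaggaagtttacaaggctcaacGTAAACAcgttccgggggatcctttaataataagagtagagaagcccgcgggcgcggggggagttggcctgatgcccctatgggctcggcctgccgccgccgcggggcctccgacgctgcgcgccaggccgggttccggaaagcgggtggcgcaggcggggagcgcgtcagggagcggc
Ptch1: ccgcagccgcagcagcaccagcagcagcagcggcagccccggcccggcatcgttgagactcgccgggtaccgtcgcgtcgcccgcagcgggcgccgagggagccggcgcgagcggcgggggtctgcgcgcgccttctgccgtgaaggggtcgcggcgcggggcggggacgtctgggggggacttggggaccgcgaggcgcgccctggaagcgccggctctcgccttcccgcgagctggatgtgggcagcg
Hhip: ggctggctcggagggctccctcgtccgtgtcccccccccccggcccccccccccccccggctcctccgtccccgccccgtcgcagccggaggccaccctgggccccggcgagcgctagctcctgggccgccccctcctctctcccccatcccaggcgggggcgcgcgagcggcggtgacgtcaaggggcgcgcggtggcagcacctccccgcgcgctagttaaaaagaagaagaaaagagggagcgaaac

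The library labelled Ctrl held 7418 barcodes and 132017331 unique molecular identifiers (UMIs), and the library labelled cKO 10281 barcodes and 162874391 UMIs, with 15 barcodes in both. After filtering, 6591 and 8969 cells remained, with medians of 16854 and 14192 UMIs. They fell into 24 clusters, of which 19 formed 13 named classes with at least 50 cells in each library. The pharyngeal classes were multilineage progenitor-like (MLP-like), branchiomeric muscle progenitor-like (BrM-like) and somatic mesoderm or anterior second heart field-like (SoM/aSHF-like) cells. The posterior second heart field (pSHF) classes were splanchnic pSHF-like and cardiopulmonary pSHF-like cells. The others were sinus venosus-like, septum transversum-like, epicardium-like, cardiomyocyte-like (CM-like), endothelium-like, sclerotome-like, dermomyotome-like and Hox-positive lateral plate-like cells. Levels are UMIs per 1e6 of the class total (CPM), with 95% intervals for counting error only. UMIs of Tbx1 do not check the labels, because a 3′ count does not separate intact from recombined transcripts. Tbx1 was compared in 8 classes, and past 1.5-fold it was higher in the library labelled cKO in 4 and lower in 1. In MLP-like cells it was 51.6 and 109 CPM (log2 ratio 1.08, 0.99 to 1.18), in BrM-like cells, its highest class in the library labelled Ctrl, 120 and 95.1 CPM (−0.34, −0.46 to −0.22), and in endothelium-like cells 7.96 and 4.89 CPM (−0.70, −1.44 to 0.01).

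The hedgehog receptor and effector genes were lower in the library labelled cKO in many but not all classes (Ptch1 in 10 of 13, Gli2 in 9 of 11, Gli3 in 8 of 13), whereas Foxf1 stayed within 1.5-fold in the 4 classes where it was highest. A gene was compared in a class where it reached 5 CPM in a library and 30 UMIs over both, and was called lower or higher past 1.5-fold. Of 130 gene and class pairs, 83 met this minimum. Of these 83 pairs, 52 were lower and 0 higher in the library labelled cKO, and 31 stayed within 1.5-fold. Over all genes, 12.8% of such pairs were lower and 3.68% higher. In 10 of the 52 pairs the gene reached 5 CPM in the library labelled Ctrl only, and such pairs could only be lower. Of the 52 pairs, 30 came within 1.5-fold under at least 1 of the other settings tried. The scale matters for the background, because the median log2 ratio of all genes lay between −0.14 and −0.06 in the 13 classes. Median-of-ratios size factors raised the ratios by 0.08 to 0.18. On that scale 44 pairs were lower and 1 higher, beside 8.1% and 6.02% of all pairs, and 2 pairs changed sign, Foxf1 in sinus venosus-like cells and Ptch1 in sclerotome-like cells, both within counting error of 0 on the main scale.

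The lower levels were spread over pharyngeal, heart field and paraxial classes. In MLP-like cells 6 of 8 compared genes were lower, where 13.3% of all genes were, and in BrM-like cells 4 of 5, where 15.7% were. In SoM/aSHF-like cells 7 of 8 were lower beside 14.6% of all genes. The splanchnic pSHF-like cells had 6 of 9 lower beside 11.4%, and the cardiopulmonary pSHF-like cells 7 of 9 beside 14.3%. Further from the pharynx, the counts were 3 of 5 in sinus venosus-like cells (9.73% of all genes), 3 of 8 in septum transversum-like cells (13.3%), 3 of 5 in CM-like cells (12.1%) and 3 of 4 in endothelium-like cells (14.2%). The sclerotome-like cells had 5 of 9 lower (11.3%), the dermomyotome-like cells 2 of 5 (15.5%), the Hox-positive lateral plate-like cells 3 of 5 (10.2%) and the epicardium-like cells 0 of 3 (11.3%). Among genes at 50 CPM or less the share lower ran from 12.2% to 19.8% over the 13 classes. Epicardium-like cells had the smallest class totals, from 59 and 84 cells.

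**Figure D1:**
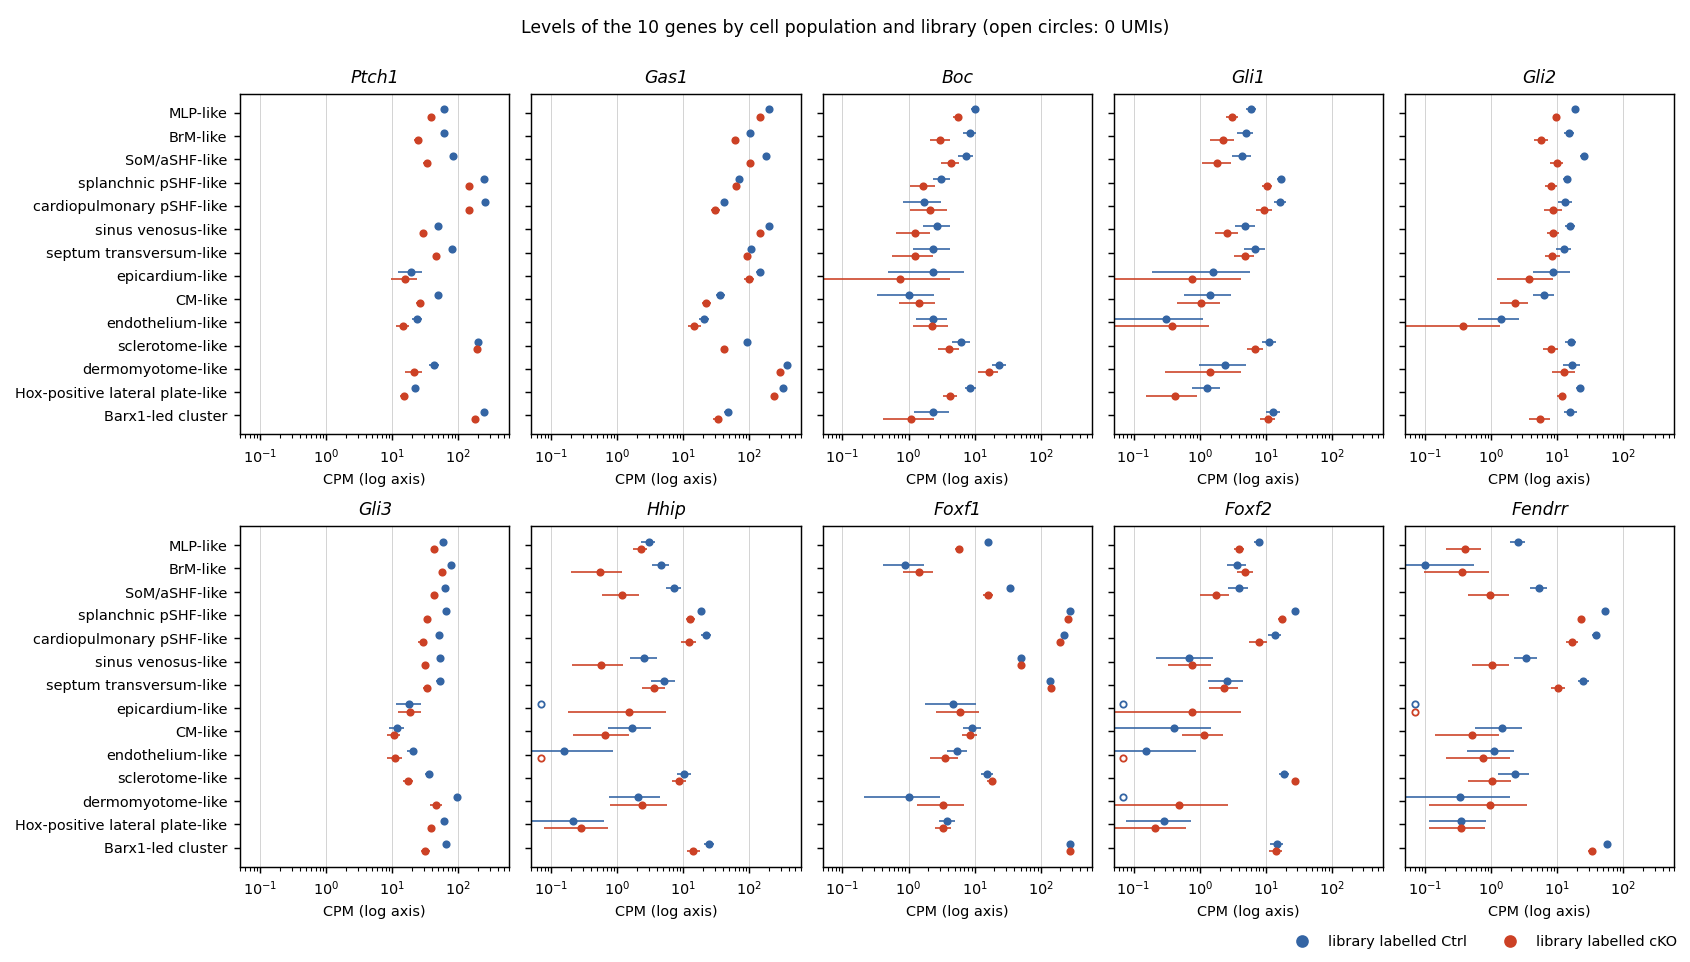
Level of each of the 10 genes in 13 classes and the Barx1-led cluster, in CPM on a log axis, as points with 95% Poisson intervals (blue, library labelled Ctrl; red, library labelled cKO; open circles at the left edge, 0 UMIs). Ptch1, Gli1 and Hhip are highest in pSHF-like cells, the Barx1-led cluster and sclerotome-like cells, and the points of the 2 libraries for Foxf1 lie close together wherever it passes 50 CPM.

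Ptch1, the receptor and general target gene, was highest in the pSHF-like classes and the sclerotome-like class. In the library labelled Ctrl it reached 257 CPM in cardiopulmonary pSHF-like, 250.3 in splanchnic pSHF-like and 201 in sclerotome-like cells. The intervals of the first 2 overlapped, and the sclerotome-like value lay below them. A gap followed to SoM/aSHF-like (83.1 CPM), septum transversum-like (79.6), BrM-like (61.4) and MLP-like cells (61.2). CM-like, sinus venosus-like and dermomyotome-like cells were at 50.5, 49.7 and 43.0 CPM with overlapping intervals. The lowest levels were 24.0 CPM in endothelium-like, 22.1 in Hox-positive lateral plate-like and 19.1 in epicardium-like cells, which did not differ beyond counting error.

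Ptch1 was lower in the library labelled cKO in 10 of 13 classes, and 6 of the 10 came within 1.5-fold under some setting. The highest ratios of those 6 were −0.48 in MLP-like, −0.35 in endothelium-like, −0.37 in SoM/aSHF-like, −0.58 in CM-like, −0.52 in septum transversum-like and −0.49 in sinus venosus-like cells. In splanchnic pSHF-like cells it was 148 CPM, a log2 ratio of −0.76 (−0.84 to −0.68), and in cardiopulmonary pSHF-like cells 144 CPM (−0.83, −0.96 to −0.71). The BrM-like cells had 24.4 CPM, a log2 ratio of −1.33 (−1.54 to −1.12), and the SoM/aSHF-like cells 33.5 CPM (−1.31, −1.51 to −1.12). These were the widest differences among the 13 classes, though other settings gave −1.47 to −0.37 in SoM/aSHF-like cells. In MLP-like cells Ptch1 was 38.8 CPM in the library labelled cKO, giving a log2 ratio of −0.66 (−0.77 to −0.55), and its 3 clusters gave −0.72, −0.63 and −0.74. Outside the pharynx the ratios of 4 classes called lower were −0.75 (−0.97 to −0.52) in sinus venosus-like, −0.79 (−1.0 to −0.57) in septum transversum-like, −0.91 (−1.19 to −0.64) in CM-like and −1.0 (−1.52 to −0.49) in dermomyotome-like cells. Hox-positive lateral plate-like (−0.53, −0.79 to −0.28) and epicardium-like cells (−0.27, −1.19 to 0.64) stayed within 1.5-fold. Sclerotome-like cells were the exception among the classes with high Ptch1, at 194 CPM in the library labelled cKO and a log2 ratio of −0.06 (−0.16 to 0.05). This class was uneven between embryos and is described further on. Sclerotome-like cells ranked first in the library labelled cKO, but also, at 390 CPM against 275 in splanchnic pSHF-like cells, in the Y-linked-positive cells of the library labelled Ctrl, so no change of order is read from the pooled values.

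The share of cells with the transcript was lower as well in the heart field classes. After each cell was thinned to 5000 UMIs, 61.6% (58.3 to 64.9) of splanchnic pSHF-like cells of the library labelled Ctrl had a Ptch1 UMI and 49.9% (46.5 to 53.4) of the library labelled cKO. The cardiopulmonary pSHF-like cells had 68.0% and 47.8%. In sclerotome-like cells the shares were 54.2% and 51.5%, with overlapping intervals. Ptch1 UMIs were also found in 11.4% and 5.22% of endothelium-like cells and in 6.92% (3.5 to 12) of the 159 erythroid-like cells, which came from the library labelled cKO alone. Erythroid marker UMIs reached 130 to 171 CPM in the 13 classes of the library labelled cKO and 0 to 17.6 CPM in those of the library labelled Ctrl, and their part in the other results was not tested.

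**Figure D2:**
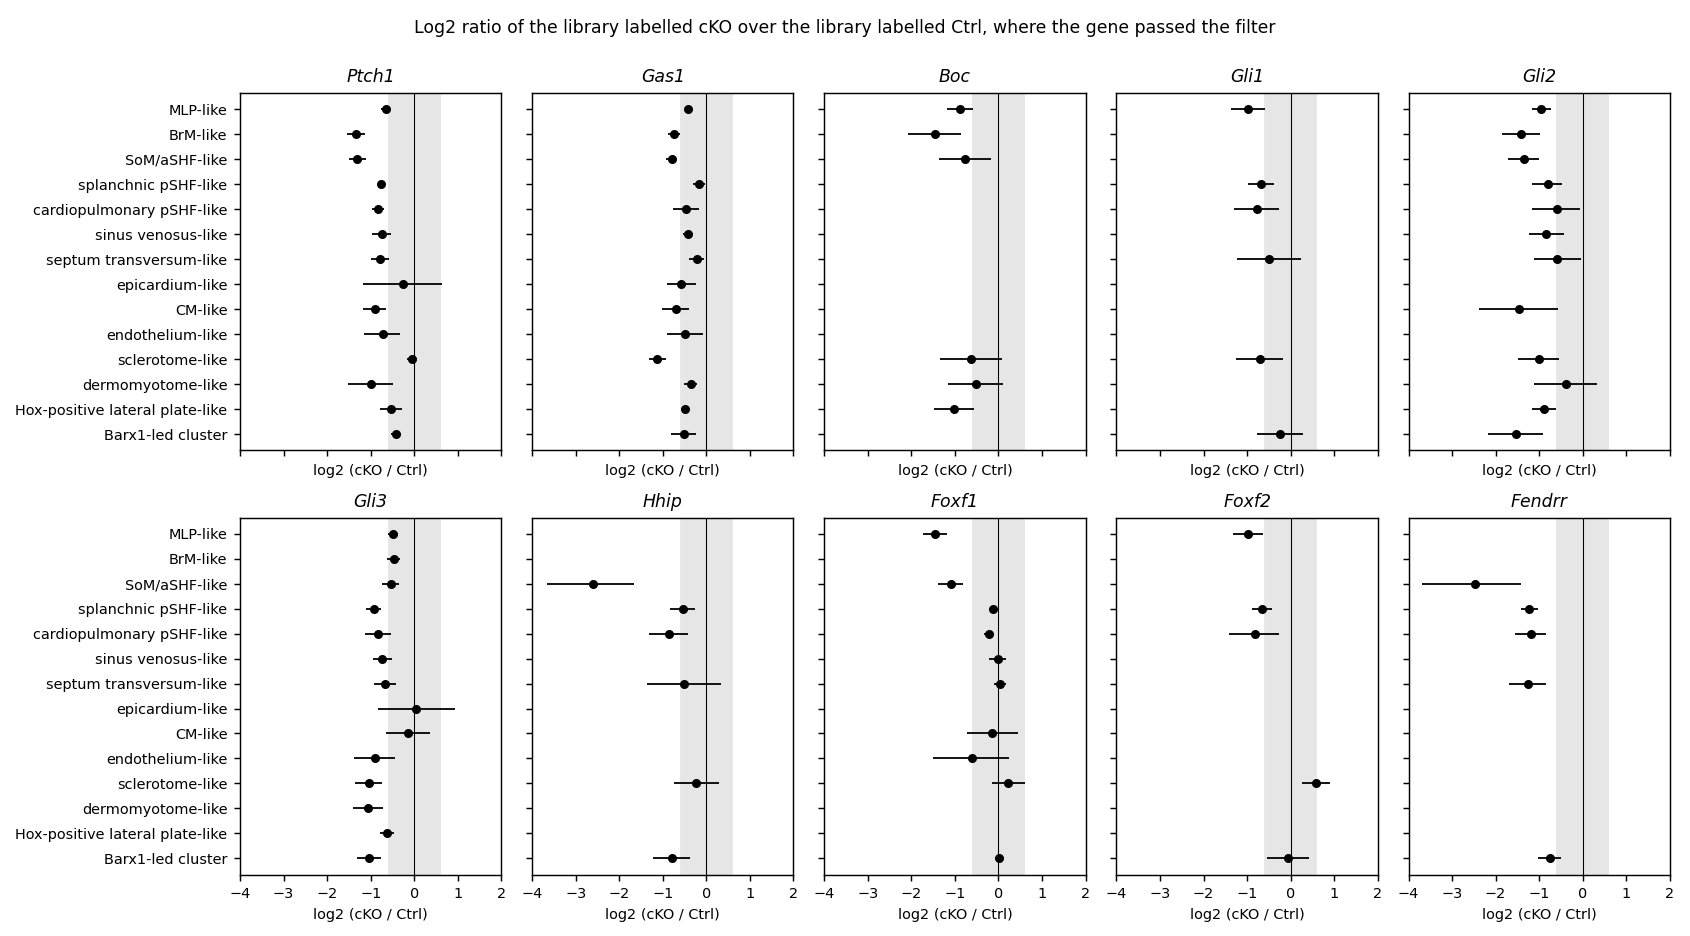
Log2 ratio of the library labelled cKO over the library labelled Ctrl for each gene and population that met the minimum, with 95% conditional intervals for counting error (grey band, within 1.5-fold; line, equal levels). Most points lie left of the band, for example Ptch1 in BrM-like cells at −1.33, while Foxf1 in splanchnic pSHF-like cells lies at −0.12 and Foxf2 in sclerotome-like cells at 0.58.

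Gas1, a membrane-anchored co-receptor gene, had another distribution than Ptch1, with its highest levels outside the pSHF-like classes. It was 377 CPM in dermomyotome-like, 326 in Hox-positive lateral plate-like, 198 in sinus venosus-like and 197 in MLP-like cells of the library labelled Ctrl. The lowest were cardiopulmonary pSHF-like (42.1 CPM), CM-like (36.4) and endothelium-like cells (20.6). All 13 classes had a log2 ratio below 0 with an interval that did not reach 0, where the class medians of all genes lay between −0.14 and −0.06. The share of all genes with such intervals was not counted. In splanchnic pSHF-like cells Gas1 was at −0.17, beside a median of −0.12 over all genes. Of the 13 classes, 4 passed 1.5-fold. They were SoM/aSHF-like (179 to 103 CPM, −0.80), BrM-like (102 to 61.0 CPM, −0.74), CM-like (36.4 to 22.3 CPM, −0.71) and sclerotome-like cells (90.6 to 41.5 CPM, −1.13, −1.33 to −0.93). Under some setting 2 of the 4 were no longer lower past 1.5-fold, up to −0.15 in CM-like and 0.65 in sclerotome-like cells. In MLP-like cells Gas1 differed by less, at 197 and 147 CPM (−0.43, −0.49 to −0.37). Its 3 MLP-like clusters were not alike, since the Irx1- and Prrx1-led cluster gave −0.58 (−0.66 to −0.51) and the Crym- and Tgfbi-led cluster 0.13 (−0.02 to 0.29).

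Boc, a co-receptor gene of the immunoglobulin family, was highest in dermomyotome-like cells, at 23.4 CPM in the library labelled Ctrl and 16.3 in the library labelled cKO, which overlapped. It met the minimum in 6 classes and was lower in 5, in 4 of which it reached 5 CPM in the library labelled Ctrl only and could only be lower. MLP-like cells had 10.2 and 5.57 CPM (−0.88, −1.17 to −0.58) and BrM-like cells 8.40 and 3.05 CPM (−1.46, −2.08 to −0.87). Hox-positive lateral plate-like cells had 8.67 and 4.29 CPM (−1.01, −1.48 to −0.56) and SoM/aSHF-like cells 7.35 and 4.34 CPM (−0.76, −1.37 to −0.17). In sclerotome-like cells the difference, 6.34 against 4.09 CPM, did not exceed counting error. Under some setting 2 of the 5 came within 1.5-fold, up to −0.36 in SoM/aSHF-like and 0.43 in sclerotome-like cells. In the pSHF-like classes Boc stayed at or below 3.16 CPM in both libraries.

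Gli1, the effector gene that is also a general readout of the pathway, had its highest levels in the classes where Ptch1 was highest. In the library labelled Ctrl it was 16.9 CPM (14.9 to 19.1) in splanchnic pSHF-like, 16.4 (13.2 to 20) in cardiopulmonary pSHF-like and 11.3 (8.85 to 14.2) in sclerotome-like cells. Septum transversum-like cells (6.81 CPM) and MLP-like cells (6.02) came next, and endothelium-like cells were at 0.312 CPM, or 2 UMIs. The splanchnic pSHF-like level was 10.6 CPM in the library labelled cKO, or a log2 ratio of −0.67 (−0.98 to −0.37). The cardiopulmonary pSHF-like level was 9.54 CPM (−0.78, −1.30 to −0.27) and the MLP-like level 3.05 CPM (−0.98, −1.38 to −0.59). Sclerotome-like cells had 6.91 CPM (−0.71, −1.24 to −0.18). Gli1 was thus lower past 1.5-fold in 4 of the 5 classes where it met the minimum, but each of the 4 came within 1.5-fold under some setting, up to −0.46 in splanchnic pSHF-like, −0.52 in cardiopulmonary pSHF-like, −0.49 in MLP-like and −0.018 in sclerotome-like cells. In MLP-like cells it reached 5 CPM in the library labelled Ctrl only. The exception was the septum transversum-like class, with 6.81 and 4.81 CPM (−0.50, −1.24 to 0.24).

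Few cells had a Gli1 UMI at an even depth. The share in splanchnic pSHF-like cells was 7.76% (6.06 to 9.77) in the library labelled Ctrl and 4.70% (3.38 to 6.35) in the library labelled cKO, and in MLP-like cells 2.68% (1.89 to 3.67) and 1.53% (1.04 to 2.17). Those intervals overlapped. The shares in cardiopulmonary pSHF-like cells, 6.33% (3.91 to 9.61) and 6.49% (4.11 to 9.66), overlapped almost wholly and give no order. In endothelium-like cells 0 of 359 cells of the library labelled Ctrl had a Gli1 UMI after thinning, which allows a share of cells with a UMI of up to 0.836% at that depth by the limit of 3 counts. Without thinning 2 of 365 had one. Neither bounds the share of cells that express the gene.

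Gli2 and Gli3 were spread more evenly than Gli1. Gli2, the main activator, ran from 1.40 CPM in endothelium-like to 25.3 CPM in SoM/aSHF-like cells of the library labelled Ctrl. It was lower in 9 of 11 classes. The widest differences were 15.2 against 5.74 CPM in BrM-like (−1.41, −1.85 to −0.98), 25.3 against 9.88 CPM in SoM/aSHF-like (−1.35, −1.72 to −1.0) and 6.41 against 2.33 CPM in CM-like cells (−1.46, −2.38 to −0.58). The last pair reached 5 CPM in the library labelled Ctrl only, so it could only be lower, and came to −0.47 under another setting. MLP-like cells had 18.9 and 9.75 CPM (−0.95, −1.17 to −0.74). Septum transversum-like (−0.58) and dermomyotome-like cells (−0.38) stayed within 1.5-fold.

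Gli3, the main repressor, was 97.6 CPM in dermomyotome-like cells of the library labelled Ctrl and 47.0 in those of the library labelled cKO (−1.06, −1.40 to −0.72). BrM-like cells had 78.4 and 56.5 CPM (−0.47, −0.62 to −0.32), so that dermomyotome-like cells ranked first in the former library and BrM-like cells in the latter, where the intervals of both overlapped. It was lower past 1.5-fold in 8 of 13 classes, but 5 of the 8 came within 1.5-fold under some setting. Gli3 then reached −0.47 in sinus venosus-like, −0.52 in Hox-positive lateral plate-like, −0.53 in septum transversum-like, −0.55 in sclerotome-like and −0.57 in endothelium-like cells. Its differences were wider in splanchnic pSHF-like (64.6 to 33.8 CPM, −0.94, −1.10 to −0.77) and cardiopulmonary pSHF-like cells (51.9 to 29.2 CPM, −0.83, −1.12 to −0.54) than in MLP-like (60 to 42.6 CPM, −0.49, −0.60 to −0.38) and SoM/aSHF-like cells (63.6 to 43.6 CPM, −0.54, −0.73 to −0.36). The difference between those differences was not tested. In epicardium-like and CM-like cells Gli3 did not differ beyond counting error.

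Hhip, which encodes a decoy that binds the ligand, met the minimum in 5 classes. In the library labelled Ctrl it was 22.0 CPM in cardiopulmonary pSHF-like, 18.7 in splanchnic pSHF-like, 10.2 in sclerotome-like and 7.23 in SoM/aSHF-like cells. It was at 1 and 0 UMIs in endothelium-like cells. The library labelled cKO had 12.1 CPM in cardiopulmonary pSHF-like (−0.86, −1.32 to −0.42) and 12.8 CPM in splanchnic pSHF-like cells (−0.54, −0.83 to −0.26), the latter within 1.5-fold. The widest difference was in SoM/aSHF-like cells, with 63 UMIs against 11, or 7.23 against 1.19 CPM (−2.60, −3.67 to −1.66). Hhip reached 5 CPM there in the library labelled Ctrl only, so the pair could only be lower. Over the settings tried the ratio ranged from −2.60 to −0.57 there, the latter within 1.5-fold. BrM-like cells held 46 and 6 UMIs of Hhip (4.55 and 0.538 CPM), just under the minimum. Sclerotome-like cells, at 10.2 and 8.70 CPM, did not differ beyond counting error.

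Foxf1 was the splanchnic gene of the set and differed less between the libraries than Ptch1 in the 4 classes where it was highest. In the library labelled Ctrl it was 282 CPM in splanchnic pSHF-like, 227 in cardiopulmonary pSHF-like, 140.0 in septum transversum-like and 51.2 in sinus venosus-like cells, each step larger than counting error. The same classes of the library labelled cKO had 260.0, 196, 144 and 50.5 CPM. The log2 ratios were −0.12 (−0.18 to −0.05), −0.21 (−0.33 to −0.09), 0.04 (−0.11 to 0.18) and −0.02 (−0.21 to 0.17). None of the 4 passed 1.5-fold, and the Ptch1 ratios in the same cells were −0.76, −0.83, −0.79 and −0.75. With size factors the Foxf1 ratios were −0.0014, −0.10, 0.18 and 0.08, so that the direction in sinus venosus-like cells depends on the scale. The share of splanchnic pSHF-like cells with a Foxf1 UMI was 69.2% (66.0 to 72.3) and 65.6% (62.3 to 68.8).

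Foxf1 was lower in MLP-like cells of the library labelled cKO, where its level was low. MLP-like cells of the library labelled Ctrl had 363 UMIs, or 15.9 CPM (14.3 to 17.7), and those of the library labelled cKO 175 UMIs, or 5.80 CPM (4.97 to 6.73). The log2 ratio was −1.46 (−1.73 to −1.19). The 3 MLP-like clusters moved the same way. The Irx1- and Prrx1-led cluster had 17.1 and 6.75 CPM (−1.34, −1.69 to −1.0), the Crym- and Tgfbi-led cluster 14.9 and 3.69 CPM (−2.02, −2.65 to −1.41) and the Prdm1- and Rdh10-led cluster 14.2 and 6.53 CPM (−1.12, −1.73 to −0.54). The size of the difference depended on how cells were selected and clustered, from −2.19 with the genes that differ between libraries left in the clustering to −0.58 with all cells of the matrices, the latter inside 1.5-fold. Thinned shares were 5.65% (4.49 to 7.0) and 2.17% (1.58 to 2.91) of MLP-like cells. CM-like cells, which should lack the gene, had 2.64% (1.07 to 5.37) and 2.77% (1.48 to 4.69), and endothelium-like cells 1.95% and 1.65%. BrM-like cells had 0.189% (0.00479 to 1.05) and 0.542% (0.148 to 1.38), and 0 of the 159 erythroid-like cells had a Foxf1 UMI. The share of MLP-like cells in the library labelled cKO overlapped those of CM-like and endothelium-like cells and lay above that of BrM-like cells.

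SoM/aSHF-like cells had 34.3 and 16.1 CPM of Foxf1 (−1.10, −1.39 to −0.81), but the settings tried ranged from −1.54 to 0.99, the highest with the genes that differ between libraries left in the clustering, so that neither the size nor the direction was stable. Their thinned shares, 8.80% (6.47 to 11.6) and 6.84% (4.93 to 9.19), overlapped. In BrM-like, epicardium-like, dermomyotome-like and Hox-positive lateral plate-like cells Foxf1 lay below the minimum, with 0.889 to 4.77 CPM in the library labelled Ctrl. In CM-like cells it was 9.31 and 8.42 CPM and in sclerotome-like cells 15.6 and 18.2 CPM, both within counting error. The endothelium-like ratio of −0.61 (−1.50 to 0.23) rested on 35 and 19 UMIs and had the opposite sign when presumed doublets or all cells were kept. Foxf1 was 5.46 and 3.58 CPM there and reached 5 CPM in the library labelled Ctrl only, so in the main setting this pair could only be called lower.

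**Figure D3:**
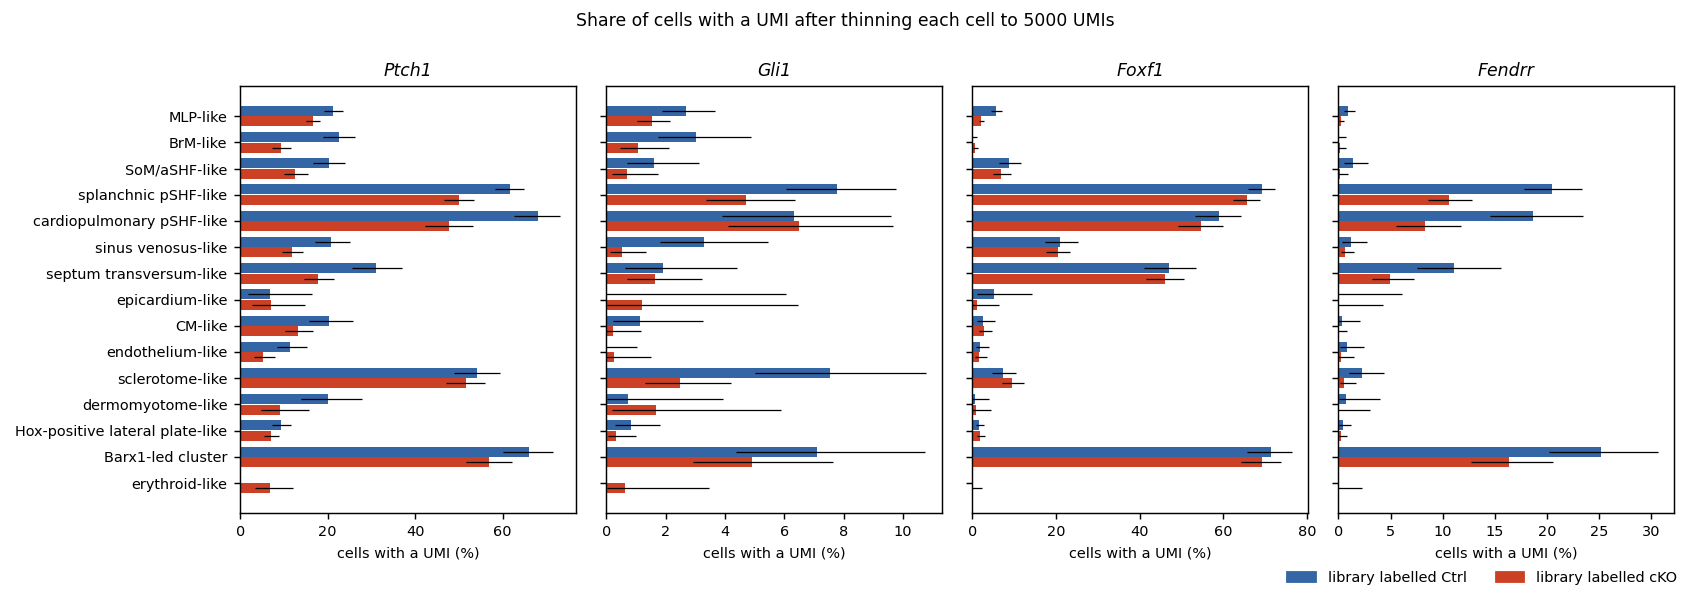
Share of cells with at least 1 UMI of Ptch1, Gli1, Foxf1 and Fendrr after each cell was thinned to 5000 UMIs, by population and library (blue bars, library labelled Ctrl; red bars, library labelled cKO; lines, 95% Clopper-Pearson intervals; the erythroid-like cells are in the library labelled cKO alone). Foxf1 bars match between libraries in pSHF-like cells (69.2% and 65.6% in the splanchnic class), where the Fendrr bars are 20.5% and 10.6%.

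Fendrr, the non-coding neighbour of Foxf1, was highest in pSHF-like and septum transversum-like cells, as Foxf1 was, and was lower in them in the library labelled cKO. Splanchnic pSHF-like cells of the library labelled Ctrl had 823 UMIs, or 54.1 CPM (50.5 to 57.9), and those of the library labelled cKO 304 UMIs, or 23.2 CPM (20.6 to 25.9). The log2 ratio was −1.22 (−1.42 to −1.03). Cardiopulmonary pSHF-like cells had 39.2 and 17.1 CPM (−1.19, −1.56 to −0.83) and septum transversum-like cells 25.1 and 10.4 CPM (−1.27, −1.70 to −0.84). The Foxf1 ratios in these 3 classes were between −0.21 and 0.04, and their intervals did not meet those of Fendrr. SoM/aSHF-like cells had 47 UMIs against 9 (5.40 and 0.977 CPM, −2.47, −3.68 to −1.42), with −2.76 to −0.35 under other settings. In MLP-like cells, below the minimum, 58 UMIs (2.55 CPM) stood against 12 (0.398 CPM), and in sinus venosus-like cells 25 (3.40 CPM) against 11 (1.05 CPM). Fendrr was lower past 1.5-fold in 4 of 4 classes compared, of which the SoM/aSHF-like class reached 5 CPM in the library labelled Ctrl only and could only be lower. Its thinned share in splanchnic pSHF-like cells was 20.5% (17.8 to 23.3) and 10.6% (8.59 to 12.8), with 0.377% and 0% in CM-like cells as background. The annotated spans of Foxf1 and Fendrr do not overlap.

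Foxf2, the paralogue of Foxf1 on another chromosome, followed Ptch1 and Gli1 more than Foxf1. In the library labelled Ctrl it was 27.4 CPM in splanchnic pSHF-like, 18.9 in sclerotome-like, 13.8 in cardiopulmonary pSHF-like and 7.82 in MLP-like cells, and at or below 3.90 CPM in the other classes. It was lower in splanchnic pSHF-like (17.4 CPM, −0.65, −0.89 to −0.42), cardiopulmonary pSHF-like (7.79 CPM, −0.82, −1.41 to −0.26) and MLP-like cells (3.98 CPM, −0.97, −1.32 to −0.63) of the library labelled cKO. Under some setting these 3 ratios came within 1.5-fold, up to −0.51, −0.53 and −0.45, and in MLP-like cells Foxf2 reached 5 CPM in the library labelled Ctrl only. In sclerotome-like cells it went the other way, with 18.9 CPM (15.7 to 22.5) and 28.2 CPM (24.6 to 32.1), a log2 ratio of 0.58 (0.25 to 0.91) that stayed within 1.5-fold. Septum transversum-like and sinus venosus-like cells, which carried Foxf1, had little Foxf2, at 2.55 and 0.679 CPM in the library labelled Ctrl.

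A cluster without a class name, led by Barx1, Ifitm1, Tmem158 and Tox3, was as rich in Foxf1 and Ptch1 as the splanchnic pSHF-like class. Of the 10 genes, 9 met the minimum in it. It held 285 and 374 cells. In the libraries labelled Ctrl and cKO, Ptch1 was 244 and 183 CPM (−0.42, −0.54 to −0.30), Gli1 12.8 and 10.9 CPM (−0.24, −0.77 to 0.29) and Hhip 24.7 and 14.2 CPM (−0.80, −1.23 to −0.38). Foxf1 was 279.5 and 283 CPM (0.02, −0.09 to 0.12), the most alike of all its values. Fendrr was 57.3 and 33.9 CPM (−0.76, −1.03 to −0.49), and Gli2 and Gli3 had log2 ratios of −1.53 (−2.18 to −0.91) and −1.04 (−1.31 to −0.77). Of 9 compared genes 4 were lower there, beside 15.1% of all genes. Epcam, which marks epithelium, was 23.3 and 18.4 CPM in this cluster, and the 7 markers of endoderm or other epithelium summed to 196 and 299 CPM. Within that list Sox2 went from 61 UMIs (11.8 CPM) to 4 (0.737 CPM) and Cdh1 from 4 UMIs to 0. Their part in these values was not tested. A small cluster led by Tagln, Anxa3 and Myl9 (57 and 106 cells) had 54.8 CPM of Foxf1 against 16.1 (−1.76, −2.46 to −1.09), and Ptch1 at 167 and 69.7 CPM (−1.26, −1.60 to −0.92). Foxf2 in it was 27.4 and 27.1 CPM.

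Cells with Xist UMIs and no Y-linked UMI, and cells with Y-linked UMIs and no Xist UMI, come from different embryos of a pool and so give 2 values per class and library. They are not replicates of the genotype, but show how far embryos of a pool differed. The study lists 2 embryos per library, so each value would rest on 1 embryo. In 11 classes with enough cells, 75 gene and class pairs could be set side by side. Both values of the library labelled cKO lay below both of the library labelled Ctrl in 62 pairs and above them in 1, and the libraries overlapped in 12. Over all genes, 41.1% of pairs lay below and 21.9% above. In splanchnic pSHF-like cells Ptch1 was 238 and 275 CPM in the library labelled Ctrl against 153 and 147 in the library labelled cKO, without overlap. Fendrr there was 49.2 and 62.6 CPM against 25.4 and 20.3, and Foxf1 269 and 306 CPM against 286 and 235, which overlapped. Foxf1 in MLP-like cells was 16.2 and 15.8 CPM against 4.84 and 5.73. The 1 pair above was Foxf1 in CM-like cells, with 4.65 and 7.24 CPM against 7.85 and 10.2.

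Of the 12 overlaps, 6 were in sclerotome-like cells, where the sexes of a library stood far apart. Ptch1 there was 145 CPM in Xist-positive and 390 in Y-linked-positive cells of the library labelled Ctrl, and 237 and 156 CPM in the library labelled cKO. Foxf2 was 8.63 and 48.3 CPM in the library labelled Ctrl and 37.4 and 19.9 CPM in the library labelled cKO. Gas1 ran against them, with 104 and 36.7 CPM, then 19.0 and 57.6 CPM. Ratios in this class thus turned with the cells used, from −1.32 to 0.71 for Ptch1, from −1.28 to 2.16 for Foxf2 and from −2.45 to 0.65 for Gas1. In sclerotome-like cells of the library labelled Ctrl 6.65% of all genes differed more than 2-fold between these cells, beside 0.383% to 3.75% in the other 10 classes. Tbx1 moved there as well, from 15.6 CPM in the library labelled Ctrl to 87.9 in the library labelled cKO, and its part in these values was not tested. The Gli genes lay lower in the library labelled cKO without overlap in this class, as did 41.1% of all gene and class pairs. They had 8.63 and 21.7 against 8.52 and 5.06 CPM of Gli1, 14.8 and 20 against 8.19 and 8.15 CPM of Gli2 and 35.9 and 30.8 against 13.4 and 21.1 CPM of Gli3. The Xist-positive values of Gli1, 8.63 and 8.52 CPM, were nearly equal, so no difference is read from them.

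**Figure D4:**
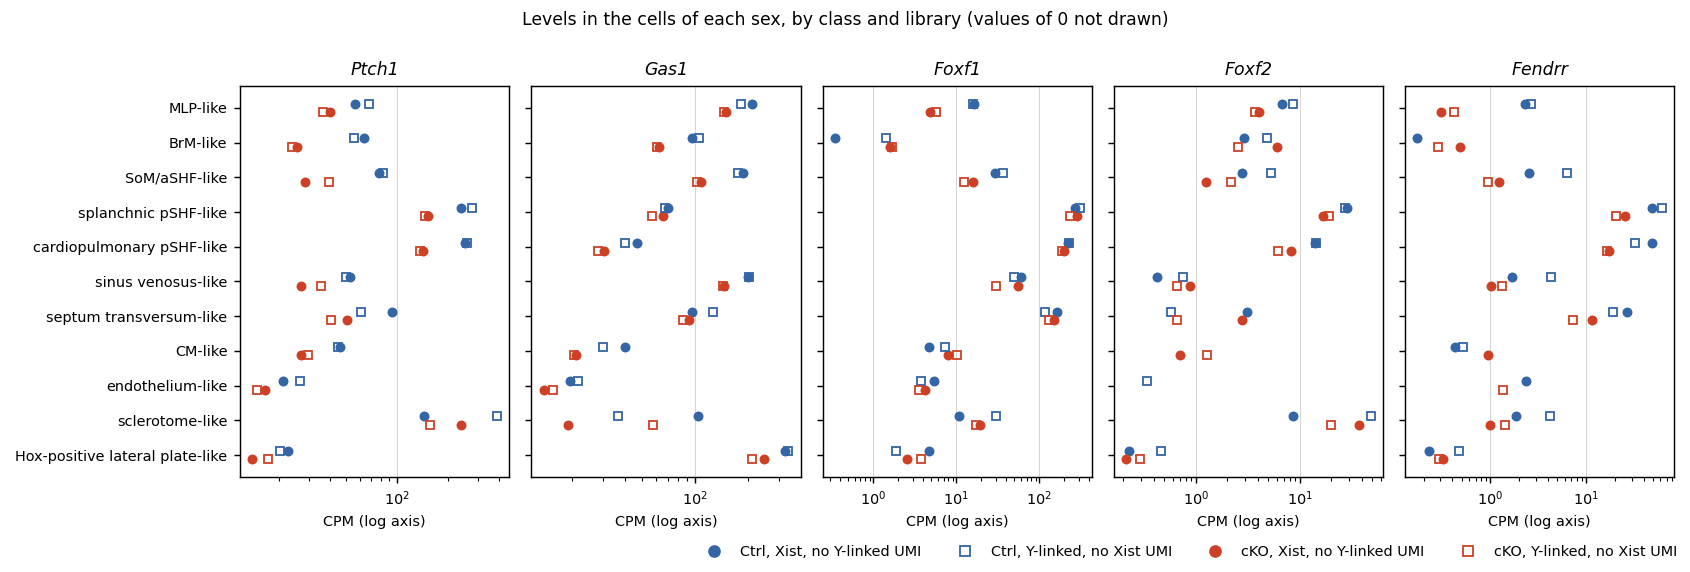
Levels of Ptch1, Gas1, Foxf1, Foxf2 and Fendrr in cells with Xist and no Y-linked UMI (filled circles) and in cells with Y-linked and no Xist UMI (open squares) of each library (blue, labelled Ctrl; red, labelled cKO) in 11 classes, in CPM on a log axis. Blue lies right of red for Ptch1 in all classes but the sclerotome-like, where the blue values are 145 and 390 CPM and the red 237 and 156.

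Across 21 clusters and both libraries (42 points), levels of the genes fell into separate patterns. Pearson correlations of log2(CPM + 5) are given as a description, since points share libraries and depth. Ptch1, Gli1 and Hhip were the most alike, with r of 0.95 for Ptch1 and Hhip, 0.94 for Gli1 and Hhip and 0.93 for Ptch1 and Gli1. Among 8187 genes, Hhip and Gli1 ranked first and second for Ptch1, ahead of Foxf2 (0.87), Foxp2 (0.85) and Ntng1 (0.85). Foxf1 was most like Fendrr (0.94), then Cxcl13 (0.86), Fam183b (0.84), Hhip (0.83) and Ifitm1 (0.83). Foxf2 was less like Foxf1 (0.64) than like Pltp (0.88), Ptch1 (0.87) and Gli1 (0.85), and Foxl1 (0.83) and Saa2 (0.82) followed.

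The co-receptors and the other Gli genes made another pattern. Gas1 had r of −0.03 with Ptch1 and Boc −0.01, while Gas1 and Boc were alike at 0.69. Gas1 was most like Ptn (0.86), Igdcc3 (0.83), Nfatc4 (0.82), Dnm3os (0.81) and Lhfpl2 (0.79). Boc was most like Grem1 (0.83), Rps6ka3 (0.81), Tcf12 (0.81), Fignl2 (0.79) and Eya1 (0.77), of which Grem1 and Eya1 were among the marker genes of MLP-like cells. Gli2 and Gli3 were alike at 0.82, and their nearest genes were Igdcc3 (0.88), Vezf1 (0.87) and Aff3 (0.86) for Gli2 and Smarcc1 (0.92), Nfyb (0.91) and Phip (0.91) for Gli3. The remaining places went to 2700049A03Rik and Clip3 (both 0.85) for Gli2 and to Gpatch8 and Cbx1 (both 0.90) for Gli3. For Gli1 the list after Hhip and Ptch1 was Foxf2, Foxp2 (0.84) and Fendrr (0.84), for Hhip Fendrr (0.88), Foxl1 (0.85) and Foxf1, and for Fendrr Hhip, Cxcl13 (0.87), Fam183b (0.86) and Gdnf (0.86).

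**Figure D5:**
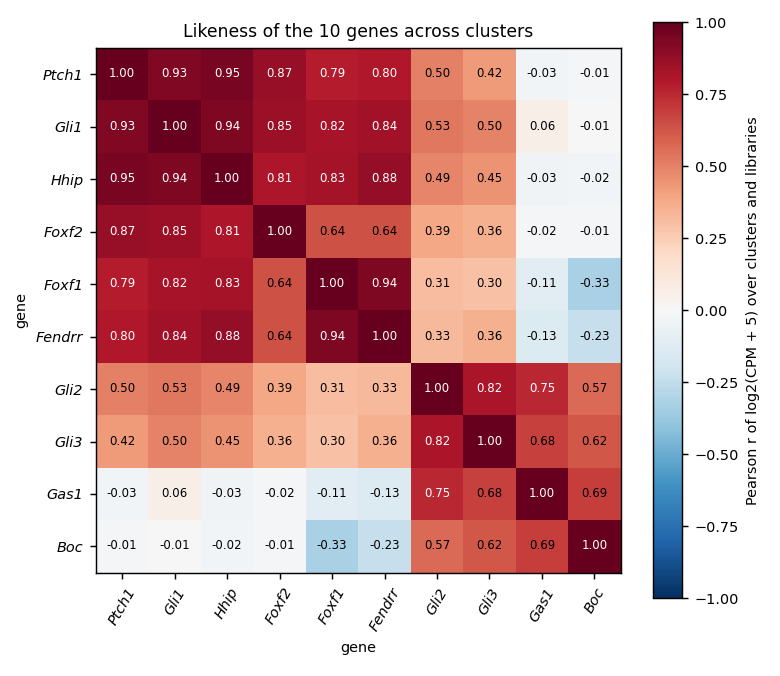
Pearson correlation of log2(CPM + 5) between the 10 genes over 42 points, 21 clusters in each of 2 libraries; colour and printed value give r from −1 to 1. Ptch1, Gli1 and Hhip form a block at 0.93 to 0.95, Foxf1 and Fendrr pair at 0.94, and Gas1 and Boc lie near 0 with Ptch1 (−0.03 and −0.01).

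Pairs of genes were also counted within single cells. In MLP-like cells of the library labelled Ctrl, 45.9% (29.5 to 63.1) of the 37 cells with a Gli1 UMI also had a Ptch1 UMI, against 20.6% (18.5 to 22.9) of the cells without. The MLP-like cells of the library labelled cKO had 41.9% (24.5 to 60.9) of 31 cells and 16.2% (14.7 to 17.9). In splanchnic pSHF-like cells Ptch1 was common with or without Gli1, at 68.2% and 61.1% in the library labelled Ctrl and 62.5% and 49.3% in the library labelled cKO, with overlapping intervals at this depth. Without thinning the intervals of the library labelled Ctrl did not overlap, at 92.9% (88.6 to 96.0) and 84.2% (81.2 to 86.9). Hhip was found with Gli1 in 1 of 37 MLP-like cells (2.70%, 0.0684 to 14.2) and in 1.19% of those without, and in 10.6% (4.37 to 20.6) and 8.04% of splanchnic pSHF-like cells, all of the library labelled Ctrl and overlapping. Fendrr was found in 22.3% (19.0 to 25.9) of splanchnic pSHF-like cells with a Foxf1 UMI and 16.4% (12.1 to 21.5) of those without in the library labelled Ctrl, and in 12.5% (9.91 to 15.6) and 6.83% (4.22 to 10.3) in the library labelled cKO. The intervals with and without Foxf1 overlapped within each library at this depth. Without thinning they did not, at 53.0% (49.4 to 56.5) and 22.1% (13.9 to 32.3) in the library labelled Ctrl and 27.6% (24.5 to 30.8) and 7.89% (2.95 to 16.4) in the library labelled cKO. Depth is shared between the genes of a cell, so these shares are descriptions. MLP-like cells with a Foxf1 UMI had a Foxf2 UMI in 10 of 78 cells (12.8%, 6.32 to 22.3) of the library labelled Ctrl, against 2.15% of those without, and in 0 of 44 cells of the library labelled cKO, with an upper bound of 8.04%, against 2.17% of those without. Without thinning 52 of 175 such cells of the library labelled Ctrl had both (29.7%, 23.1 to 37.1), against 6.22% (4.94 to 7.73) of those without. In the library labelled cKO 12 of 110 had both (10.9%, 5.77 to 18.3), against 5.05% (4.12 to 6.12). The 0 at even depth is thus not read as absence. The unthinned share with both was lower in the library labelled cKO beyond counting error, at a depth that was not evened.

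A list of 45 further genes of the pathway held ligands and their release, other receptors, ciliary and Gli-controlling factors, and genes known to answer the signal elsewhere. Over the 13 classes 75 of 369 compared gene and class pairs (20.3%) were lower past 1.5-fold and 5 (1.36%) higher, on the background of 12.8% and 3.68% given above. In 25 of the 75 the gene reached 5 CPM in the library labelled Ctrl only, and such pairs could only be lower. In MLP-like cells 9 of 32 compared genes were lower and 0 higher, where 13.3% of all genes were lower and 2.30% higher, with a median log2 ratio of −0.33 beside −0.13 over all genes. They were led by the T-box repressor gene Tbx3 (14.2 to 3.78 CPM, −1.91, −2.23 to −1.60), Prdm1 (39.8 to 16.9 CPM, −1.23, −1.39 to −1.08) and Disp1, needed for ligand release (7.60 to 4.14 CPM, −0.87, −1.22 to −0.53). Of 15 ciliary and Gli-controlling genes compared in MLP-like cells 0 were past 1.5-fold, and of 10 genes known as targets elsewhere 5 were lower. Over the 13 classes these were 16 of 182 pairs (8.79%) and 32 of 114 pairs (28.1%). In the group of ligands and their release 14 of 31 pairs were lower (45.2%). None of the 31 was of the ligand genes Shh, Ihh and Dhh, which stayed below the minimum in all 13 classes. The other receptor genes had 13 of 42 pairs lower (31.0%). Of the targets, 2 of 12 were lower in splanchnic pSHF-like (11.4% of all genes), 0 of 9 in CM-like (12.1%) and 0 of 10 in Hox-positive lateral plate-like cells (10.2%). In splanchnic pSHF-like cells 5 of 33 were lower, near the 11.4% of all genes, among them Scube1, which aids ligand release (11.4 to 5.94 CPM, −0.94, −1.35 to −0.55), and Cyp26b1 (8.29 to 4.57 CPM, −0.86).

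The third co-receptor gene, Cdon, was among the 3 lowest of the list in several classes. It was 20.2 and 6.19 CPM in SoM/aSHF-like (−1.71, −2.16 to −1.27), 19.3 and 8.34 CPM in BrM-like (−1.21, −1.58 to −0.84), 13.7 and 5.42 CPM in sinus venosus-like (−1.34), 35.1 and 13.4 CPM in dermomyotome-like (−1.39) and 25.7 and 13.5 CPM in Hox-positive lateral plate-like cells (−0.93). The SoM/aSHF-like class had 8 of 32 lower beside 14.6% of all genes, with Tbx3 (47.1 to 16.2 CPM, −1.54) and Scube3 (13.6 to 6.30 CPM, −1.11). The BrM-like class had 7 of 28 lower beside 15.7%, with Bmp4 (20.4 to 8.07 CPM, −1.33) and Hhat, which attaches palmitate to the ligand (5.63 to 2.78 CPM, −1.02), and 1 higher, where 5.01% of all genes were, the forkhead gene Foxd1 (5.34 to 8.43 CPM, 0.66). The cardiopulmonary pSHF-like class had 7 of 30 lower beside 14.3%, with Scube1 (8.01 to 2.34 CPM, −1.78) and Tbx2 (11.8 to 5.26 CPM, −1.16).

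Among the remaining classes, sinus venosus-like cells had 6 of 28 lower beside 9.73% of all genes, with Scube3 (−1.46) and Scube1 (−0.87), and septum transversum-like cells 8 of 32 beside 13.3%, with Cyp26b1 (−2.07), Foxd1 (−1.49) and Tbx3 (−0.95). Endothelium-like cells had 6 of 25 lower beside 14.2%, with Prdm1 (8.12 to 1.69 CPM, −2.26) and Evc2 (−1.16). CM-like cells had 2 of 26 lower, a share below the 12.1% of all genes, Scube1 (−0.97) and the Gli inhibitor gene Sufu (−0.77), and 1 higher, Foxd1 (5.38 to 10.6 CPM, 0.98), beside 3.95% of all genes. Epicardium-like cells had 3 of 18 lower beside 11.3%, Smo (−0.73), Bmp4 (−0.71) and Kif3a (−0.63), and 1 higher, Tulp3 (0.92), beside 6.06% of all genes. Sclerotome-like cells had 5 of 29 lower beside 11.3%, with Cdon (−1.70), Bmp4 (−1.60) and Mycn (−1.01), and 2 higher beside 6.08% of all genes, Scube1 (13.9 to 25.5 CPM, 0.87, 0.50 to 1.25) and Foxl1 (9.90 to 17.1 CPM, 0.79, 0.35 to 1.25). Dermomyotome-like cells had 6 of 27 lower beside 15.5%, with Disp1 (−1.67) and Sufu (−1.44), and Hox-positive lateral plate-like cells 3 of 29, near the 10.2% of all genes, with Scube3 (−0.81) and Sufu (−0.65).

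Hedgehog ligand transcripts were almost absent from these sorted cells. Shh had 1 UMI in the 13 classes, in SoM/aSHF-like cells of the library labelled Ctrl, and 4 UMIs in the Barx1-led cluster of that library. Ihh had at most 3 UMIs in a class of a library. Dhh, the third ligand gene, was found in endothelium-like cells, with 21 UMIs (3.28 CPM) in the library labelled Ctrl and 11 (2.07 CPM) in the library labelled cKO, within counting error. Markers of other tissues differed between the classes that carried Ptch1. The 10 cardiomyocyte markers summed to 550 CPM in the library labelled Ctrl and 1522 CPM in the library labelled cKO in cardiopulmonary pSHF-like cells, and to 74.9 and 127 CPM in splanchnic pSHF-like cells. The 7 neural crest markers summed to 9.54 and 5.26 CPM in splanchnic pSHF-like cells, with 1 and 5 of them at 0, and between 3.01 and 17.1 CPM over all classes and libraries. The 7 neural markers summed to 62.3 and 70.7 CPM in splanchnic pSHF-like cells. The 7 markers of endoderm or other epithelium, of which Krt8 and Krt18 are also made in mesoderm, summed to 68.3 and 97.2 CPM in splanchnic pSHF-like, 179 and 331 in cardiopulmonary pSHF-like and 32.3 and 41.0 in MLP-like cells. In MLP-like cells the sum held opposite changes, with 42 and 1 UMIs of Cdh1 and 4 and 41 of Sox2. In splanchnic pSHF-like cells Cdh1 was at 0 in both libraries and Foxa2 at 12 and 6 UMIs. The part of these in the results was not tested.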

How the data were processed

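Droplet-based 3′ single-cell RNA counts of 1 library labelled Ctrl and 1 labelled cKO were analysed. Per the labels and the study's methods, the authors made the deposited counts (UMIs per gene and barcode, unnormalised) with Cell Ranger 3.1.0 on mm10. Cells with at least 1000 genes and at most 10% mitochondrial UMIs were kept, and the 416 and 804 cells with the highest Scrublet scores (scanpy 1.11.5) were removed as presumed doublets. Libraries were integrated and clustered with Seurat 5.3.0 (30 dimensions, resolution 1). The genes described and the pathway list were among 197 genes kept out of clustering, and 1628 genes that differed between libraries were removed for a second pass. Classes were named from marker lists. They may differ from the study's own, and a difference from the study may come from rebuilt names. UMIs were summed per class and library and divided by the class total (1258947 to 30165289 UMIs, so that 3 counts are 0.0995 to 2.38 CPM). Levels have exact Poisson intervals, ratios exact conditional binomial intervals and shares Clopper-Pearson intervals, all at 95% and for counting error only. With 1 library per group no p-value was computed. The genes named in the pathway paragraphs are those past 1.5-fold in each class, at most 3 in each direction by size (values of 1 listed gene are not reported here), and the 5 most correlated genes are given for each member. The members, the lists and the tests were chosen with earlier results of these data known. The calculation of ratios was tested on simulated data. Python 3.11.15, R 4.3.3, scipy 1.17.1 and pandas 2.3.3 were used. Protein sequences were not used here.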

Additional observations from a re-analysis of the deposited data

Results flagged for a closer look

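Foxf2 moved in opposite directions in different classes, beyond counting error in each. Its log2 ratio, the library labelled cKO over the library labelled Ctrl, was 0.58 in sclerotome-like cells, against −0.97 in MLP-like, −0.65 in splanchnic pSHF-like and −0.82 in cardiopulmonary pSHF-like cells. The difference between these ratios was not tested, since each rests on 1 library per group. In sclerotome-like cells of the library labelled Ctrl, Foxf2 was 8.63 CPM in Xist-positive and 48.3 in Y-linked-positive cells, and in the library labelled cKO 37.4 and 19.9 CPM. The sclerotome-like ratio ranged from −1.28 to 2.16 over the settings tried.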

How the results depend on the processing

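No paired analysis was possible because each group is 1 library, and no replicate could be left out. Over the settings that changed the cells, the clustering or the scale, 44 to 54 of 68 to 87 member and class pairs were lower past 1.5-fold, beside 8.1% to 16.6% of all pairs. With a 2-fold limit 18 were, beside 2.74% of all pairs. The pairs higher were 1 of 81 in the first clustering pass (3.71% of all pairs), 5 of 75 in Xist-positive cells (5.04%), 1 of 68 in Y-linked-positive cells (5.09%), 1 of 83 with size factors (6.02%) and 8 of 129 with no minimum of CPM or UMIs (14%). Each pair had 7 to 10 settings, and 66 of the 79 pairs below 0 stayed below 0 in the settings run for them. The other 13 reached above 0 in a setting. For the pathway list, 2 of 367 pairs were higher in the first pass, 9 of 316 in Xist-positive cells and 34 of 541 with no minimum, where 134 were lower (24.8%, close to the 23.4% of all pairs). The Foxf1 ratio in MLP-like cells was −1.04 with presumed doublets kept, −0.58 with all cells, −2.19 in the first pass, −1.78 and −1.73 at resolutions 0.6 and 1.5 and −1.74 in Xist-positive cells. Among pairs called lower, the direction turned for Foxf1 in endothelium-like cells (0.44 with doublets kept, 0.40 with all cells), Foxf1 in SoM/aSHF-like cells (0.99 in the first pass), and Gas1 and Boc in sclerotome-like cells (0.65 and 0.43 in Y-linked-positive cells). Pairs within 1.5-fold that reached above 0 were Foxf1 in CM-like (0.76), splanchnic pSHF-like (0.09) and sinus venosus-like cells (0.08), Ptch1 in sclerotome-like (0.71) and epicardium-like cells (0.04), Hhip in sclerotome-like (0.52) and septum transversum-like cells (0.19), Gli3 in CM-like cells (0.27) and Gas1 in MLP-like cells (0.016). The cause was not tested. Shares rise with depth by construction. Without thinning 12.5% and 5.36% of MLP-like cells had a Foxf1 UMI, and 4.31% in the library labelled Ctrl at 3000 UMIs. Without thinning 53.0% and 27.6% of Foxf1-positive splanchnic pSHF-like cells had Fendrr, and 22.1% and 7.89% of the others.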
